A study of Mus musculus with 15 samples.

Results

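RNA of mouse neural progenitor cells was examined here at 10 genes of major histocompatibility complex (MHC) class I antigen presentation. They are the heavy chain genes H2-D1 and H2-K1, the light chain gene B2m, the transporter genes Tap1 and Tap2, the loading factor gene Tapbp, the proteasome subunit genes Psmb8, Psmb9 and Psmb10, and the regulator gene Nlrc5. They are 10 of the 34910 genes in the count table, and all 10 are among the 15141 genes that passed the filter on low counts. The list was drawn up from the pathway after H2-D1 and B2m had been seen to be lower in 1 group, shLINE_MdV_I, than in shControl. Values of the 10 genes in comparisons with shLINE_MdV_I, and counts past a threshold there, are therefore a description and carry no test. Tests are given in the other comparisons.

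MHC class I molecules display peptides from inside a cell to CD8 T cells. A heavy chain pairs with beta-2-microglobulin, the product of B2m, on peptides that the proteasome cuts, that the Tap1 and Tap2 transporter moves into the endoplasmic reticulum, and that tapasin, the product of Tapbp, helps to load. Interferons are known to raise the genes of this pathway together, and neural cells are known for keeping them low at rest.

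The study had 5 groups of 3 libraries, 15 in all. Wild type neural progenitor cells grown with FGF2, EGF and heparin received plasmids with EGFP and a short hairpin RNA (shRNA), and GFP-positive cells were sorted on day 3. The shRNAs were directed at LINE-1, a family of repeats that copy themselves through RNA. The groups were shLINE_Orf1, shLINE_Orf2, shLINE_MdV_I, shLINE_Orf1 given together with a full-length LINE-1 (shLINE_Orf1+LINE-1), and shControl. All 5 groups thus share the plasmid, EGFP and the sort. Per the series' design text the targets were young and old LINE-1, and the added LINE-1 went with the shRNA to the young kind. Which kind shLINE_Orf2 and shLINE_MdV_I target is not stated. LINE-1 RNA was not measured here, so the extent of knockdown in each library is not known. The labels do not say that replicates came from separate cultures, so the p-values speak of the spread among these libraries alone, which could be technical.

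Libraries held 39204327 to 51070601 gene counts. On the first principal component, with 23.9% of the variance of log2 CPM (CPM, counts scaled to a common library total with TMM factors), shLINE_Orf1 replicate 1 lay at 75.9 and shControl replicate 2 at 24.3, while the other 13 libraries lay between -18.8 and 4.7. Counts of genes are therefore also given without these 2 libraries, a choice made after the data had been seen. The cells carried the progenitor markers, since all 10 on the list passed the filter and their sum was at least 6240 CPM in every library. Of the 12 microglia and macrophage markers, 11 were under 1 CPM in all libraries, and Aif1, C1qa, C1qb, C1qc and Tyrobp were at 0. Of the 7 endothelial and the 7 mural and fibroblast markers, 5 and 6 were under 1 CPM throughout. The exceptions were Pecam1 at 20.9 to 48.5 CPM, Kdr at up to 1.6 CPM and Acta2 at 7.52 to 12.5 CPM. In such bulk samples, fewer cells that express a gene and less RNA per cell cannot be told apart.

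Promoter sequences of 5 of the genes are shown first. H2-D1, H2-K1, B2m and Psmb8 are shown because their values were lowest in 1 group and their windows hold motifs of interferon and NF-kappaB signalling, and Tapbp because its values went another way and its window holds none of them. RefSeq promoter windows (build GRCm38.p6), each from 250 bases before to 50 bases after a start site, were matched for 8 of the 10 genes by symbol, in 9 windows. The genes not matched were Tap2 and Nlrc5. Capitals mark matches, on either strand, to the interferon-stimulated response element (ISRE), read as GAAA, any 2 bases and GAAA, to the shorter interferon regulatory factor core (AA, any 2 bases, GAAA) that lies inside it, to the NF-kappaB motif (GGG, any 2 bases, TTCCC), and to the interferon-gamma activated site (GAS: TTC, any 3 bases, GAA). The windows are chr17:35262844-35263143 (plus strand) for H2-D1, chr17:34000298-34000597 (minus strand) for H2-K1, chr2:122147437-122147736 (plus strand) for B2m, chr17:34197945-34198244 (plus strand) for Psmb8 and chr17:33919228-33919527 (plus strand) for Tapbp.
H2-D1: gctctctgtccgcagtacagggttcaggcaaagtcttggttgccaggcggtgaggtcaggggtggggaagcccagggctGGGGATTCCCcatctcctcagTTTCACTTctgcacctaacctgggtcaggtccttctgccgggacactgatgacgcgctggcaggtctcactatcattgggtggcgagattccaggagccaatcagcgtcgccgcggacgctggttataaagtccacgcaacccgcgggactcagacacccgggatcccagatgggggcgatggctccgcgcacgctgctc
H2-K1: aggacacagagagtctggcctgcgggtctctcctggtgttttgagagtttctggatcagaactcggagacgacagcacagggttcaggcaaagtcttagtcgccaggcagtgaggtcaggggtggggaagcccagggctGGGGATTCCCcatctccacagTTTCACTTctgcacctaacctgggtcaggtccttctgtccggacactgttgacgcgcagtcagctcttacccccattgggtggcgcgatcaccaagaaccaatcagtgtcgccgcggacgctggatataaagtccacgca
B2m: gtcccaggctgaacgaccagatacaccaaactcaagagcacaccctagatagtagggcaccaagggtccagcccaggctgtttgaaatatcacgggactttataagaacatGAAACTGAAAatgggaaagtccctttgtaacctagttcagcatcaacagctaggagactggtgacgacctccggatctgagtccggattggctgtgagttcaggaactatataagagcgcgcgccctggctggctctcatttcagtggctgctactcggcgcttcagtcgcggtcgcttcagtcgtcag
Psmb8: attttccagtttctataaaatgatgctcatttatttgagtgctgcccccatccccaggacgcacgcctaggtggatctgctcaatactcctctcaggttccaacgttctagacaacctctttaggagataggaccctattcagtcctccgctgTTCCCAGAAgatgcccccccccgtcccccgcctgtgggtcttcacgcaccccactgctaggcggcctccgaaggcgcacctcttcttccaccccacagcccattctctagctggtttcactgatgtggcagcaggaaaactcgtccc
Tapbp: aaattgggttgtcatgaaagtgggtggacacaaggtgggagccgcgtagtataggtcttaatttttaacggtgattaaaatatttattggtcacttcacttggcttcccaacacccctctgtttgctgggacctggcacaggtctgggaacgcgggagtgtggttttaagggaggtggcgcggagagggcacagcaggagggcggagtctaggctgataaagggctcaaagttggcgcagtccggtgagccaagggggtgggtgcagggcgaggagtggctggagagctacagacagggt

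Both heavy chain promoters held the NF-kappaB motif, which 1.75% of the 32851 promoters searched hold, and the interferon regulatory factor core, which 23.9% hold. In both, the same 10 letters GGGGATTCCC lie upstream of the same 8 letters TTTCACTT, which is the core read on the other strand. The B2m window held the full ISRE as GAAACTGAAA, 139 bases before the start site, which 3.44% of promoters hold. Psmb8 held a GAS as TTCCCAGAA, 97 bases before the start site, which 8.3% of promoters hold. Tapbp, Tap1, Psmb9 and Psmb10 held none of these 4 motifs in their windows. All of these but Tapbp also had a negative log2 fold change in shLINE_MdV_I over shControl, at -0.39 for Tap1 and -0.4 for Psmb9. The windows shown were picked on both values and motifs, so they show no link between the 2. The CRE core TGACG, which 20.8% of promoters hold, was found for B2m, H2-D1, H2-K1, Psmb9 and Tap1, and CCAAT, which 37.4% hold, for the same genes and Tapbp. A match is a description of letters and not a sign of binding.

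Of the 10 genes, 7 lie on chromosome 17 in the MHC (GRCm38): Tapbp at 33915899 to 33929292, H2-K1 at 33996017 to 34000347, Psmb9 at 34181987 to 34187764, Tap1 at 34187553 to 34197225, Psmb8 at 34197721 to 34201454, Tap2 at 34203527 to 34216321, and H2-D1 at 35262730 to 35267499. B2m lies on chromosome 2 at 122147686 to 122153083, and Nlrc5 (94434356 to 94527272) and Psmb10 (105935735 to 105938444) lie on chromosome 8. Tap1 and Psmb9 are transcribed away from each other and overlap by 212 bases. Whether counting used strand is not given in the sources used here, so reads from that overlap cannot be told apart.

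Per length of transcript, B2m was the most abundant of the 10 in every group. In TPM (counts per kilobase of annotated transcript, scaled to the same total in every library), B2m averaged 543 ± 29.4 in shLINE_MdV_I and 958 ± 96.2 in shControl (SD, n = 3 each). H2-D1 averaged 241 ± 11.4 TPM in shLINE_MdV_I and 420 ± 31.7 TPM in shControl. H2-K1 averaged 248 ± 4.68 TPM in shLINE_MdV_I and 305 ± 23.2 TPM in shControl. In shLINE_MdV_I the 2 heavy chains did not differ beyond their spread, whereas in shControl H2-D1 lay above H2-K1 in all 3 libraries. Below them in shControl came Psmb10 at 91.4 ± 14.7 TPM, Psmb8 at 56.3 ± 8.38, Tapbp at 32.6 ± 2.49, Tap1 at 29.7 ± 6.24, Psmb9 at 20.1 ± 4.86, Tap2 at 12.8 ± 1.73 and Nlrc5 at 1.56 ± 0.333 TPM. In that order the ranges of Tapbp and Tap1, of Tap1 and Psmb9 and of Psmb9 and Tap2 overlapped, and the other neighbours did not.

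**Figure D1:**
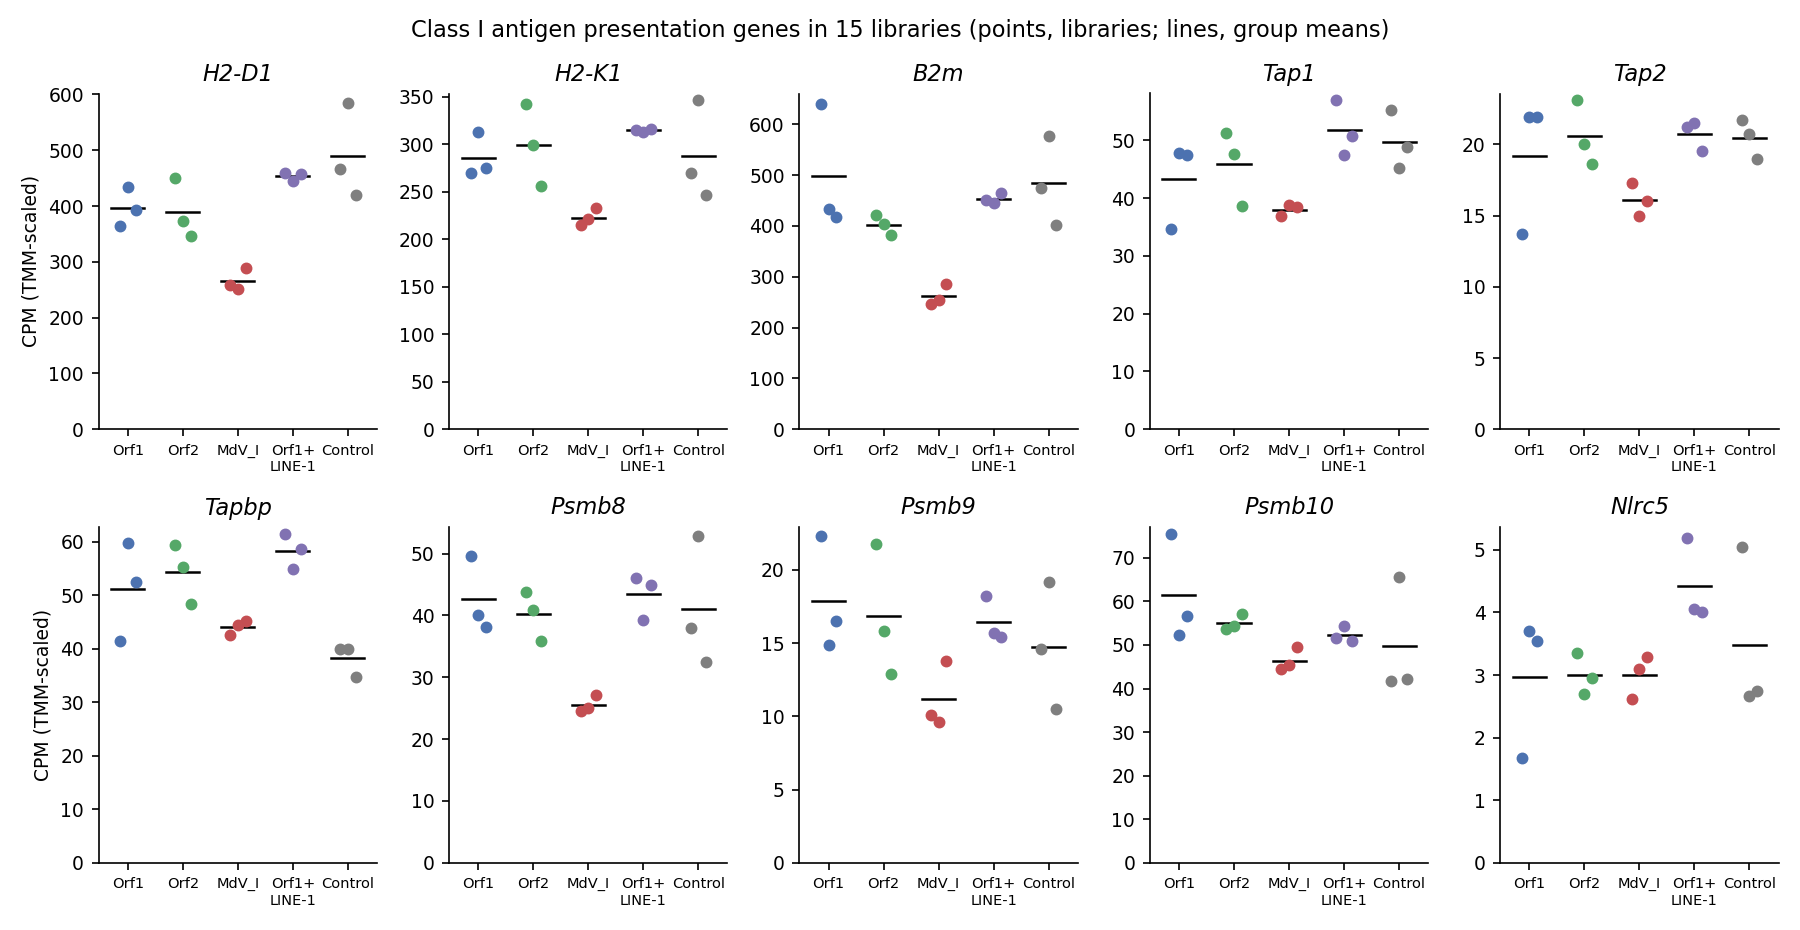
CPM of the 10 genes in all 15 libraries, 1 panel a gene with its own y axis from 0; points are libraries and lines are group means. For H2-D1, H2-K1, B2m and Psmb8 the 3 shLINE_MdV_I libraries lie below all 12 others; for Tapbp the 3 shControl libraries lie lowest.

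In shLINE_MdV_I, H2-D1, which encodes a class I heavy chain that presents peptide to CD8 T cells, had 258, 251 and 289 CPM. It had 364, 434 and 393 CPM in shLINE_Orf1, 450, 373 and 347 CPM in shLINE_Orf2, 459, 445 and 458 CPM in shLINE_Orf1+LINE-1, and 466, 585 and 420 CPM in shControl. On this scale the 3 shLINE_MdV_I libraries lay below all 12 others. Relative to shControl the log2 fold change in shLINE_MdV_I was -0.88 ± 0.13 (SE), a level of 0.542 times that in shControl. Against shLINE_Orf1, shLINE_Orf2 and shLINE_Orf1+LINE-1 it was -0.58 ± 0.13, -0.55 ± 0.13 and -0.77 ± 0.13.

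H2-K1 encodes the other heavy chain on the list. It had 215, 221 and 233 CPM in shLINE_MdV_I, 270, 313 and 275 CPM in shLINE_Orf1, 343, 299 and 256 CPM in shLINE_Orf2, 315, 313 and 316 CPM in shLINE_Orf1+LINE-1, and 270, 347 and 247 CPM in shControl. Here too every shLINE_MdV_I library was below the other 12, but the gap to the nearest, a shControl library, was small. The log2 fold change of shLINE_MdV_I over shControl was -0.37 ± 0.13 with a 95% interval from -0.64 to -0.1, against an interval from -1.16 to -0.61 for H2-D1. In TPM, shLINE_Orf1 replicate 1 was lower still, at 230 for H2-D1 and 212 for H2-K1, so the order of that library and shLINE_MdV_I depends on the scale. Near-identical copies bear on both values, since 14.3% of the 50-base words of the main H2-D1 transcript and 8.8% of those of H2-K1 also occur in transcripts of other genes, mainly other heavy chains. With all class I heavy chain genes summed to 1 feature, the log2 fold change of shLINE_MdV_I over shControl was -0.65 ± 0.13. The same sum was at -0.14 ± 0.13 in shLINE_Orf1 (adjusted p = 0.657), -0.17 ± 0.13 in shLINE_Orf2 (adjusted p = 0.956) and -0.01 ± 0.13 in shLINE_Orf1+LINE-1 (adjusted p = 0.992) over shControl, by the quasi-likelihood test of edgeR (Benjamini-Hochberg).

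B2m encodes the invariant light chain shared by class I molecules. It had 247, 254 and 286 CPM in shLINE_MdV_I, 641, 434 and 418 CPM in shLINE_Orf1, 421, 404 and 383 CPM in shLINE_Orf2, 451, 446 and 464 CPM in shLINE_Orf1+LINE-1, and 474, 578 and 402 CPM in shControl. All shLINE_MdV_I libraries lay below the other 12, and the highest value was that of shLINE_Orf1 replicate 1, the library that stands apart. The log2 fold change of shLINE_MdV_I over shControl was -0.89 ± 0.15, a level of 0.541 times that in shControl. None of the 50-base words of B2m occurs in another gene's transcript. The ratio of B2m to the sum of H2-D1 and H2-K1, in CPM, was 0.536 ± 0.0136 in shLINE_MdV_I and 0.622 ± 0.0202 in shControl, with no overlap between their libraries. It was 0.739 ± 0.237 in shLINE_Orf1, where replicate 1 had 1.01, 0.59 ± 0.0531 in shLINE_Orf2 and 0.59 ± 0.0088 in shLINE_Orf1+LINE-1.

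The peptide transporter is a pair of the products of Tap1 and Tap2. Tap1 had 36.9, 38.8 and 38.4 CPM in shLINE_MdV_I, 34.7, 47.9 and 47.5 CPM in shLINE_Orf1, 51.3, 47.6 and 38.7 CPM in shLINE_Orf2, 57.0, 47.5 and 50.7 CPM in shLINE_Orf1+LINE-1, and 55.2, 45.3 and 48.9 CPM in shControl. shLINE_MdV_I lay below shControl and shLINE_Orf1+LINE-1 without overlap, while it overlapped with shLINE_Orf1 and with shLINE_Orf2. Over shControl the log2 fold change in shLINE_MdV_I was -0.39 ± 0.14 for Tap1 and -0.34 ± 0.15 for Tap2. In TPM the groups overlapped for both, since shControl replicate 2 had 23 TPM of Tap1 and 11.3 TPM of Tap2, against up to 24.1 and 11.4 TPM in shLINE_MdV_I.

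Tap2 had 17.3, 15 and 16 CPM in shLINE_MdV_I, 13.7, 21.9 and 21.9 CPM in shLINE_Orf1, 23.1, 20.0 and 18.6 CPM in shLINE_Orf2, 21.2, 21.5 and 19.5 CPM in shLINE_Orf1+LINE-1, and 21.7, 20.7 and 19.0 CPM in shControl. Every shLINE_MdV_I library was below every shControl library, and the lowest value of all was in shLINE_Orf1 replicate 1. Most Tap2 counts, 67.4% on average, were assigned to Tap2-202, a transcript annotated as retaining an intron, and 32.3% to the coding transcript Tap2-201. Tap2-201 had 238.84, 277.49 and 317.66 expected counts in shLINE_MdV_I and 324.83, 284.34 and 256.24 in shControl, so for the coding transcript these groups overlapped. Tap2-202 had 629.11, 462.04 and 447.12 expected counts in shLINE_MdV_I and 684.19, 673.16 and 645.76 in shControl.

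Tapbp encodes tapasin, which holds an empty class I molecule next to the transporter. It had 42.5, 44.4 and 45.2 CPM in shLINE_MdV_I, 41.4, 59.8 and 52.5 CPM in shLINE_Orf1, 59.3, 55.3 and 48.3 CPM in shLINE_Orf2, 61.4, 54.9 and 58.7 CPM in shLINE_Orf1+LINE-1, and 40.0, 40.0 and 34.7 CPM in shControl. It was the 1 gene of the 10 with shControl lowest, since all 12 other libraries lay above the 3 of shControl. In TPM shLINE_Orf1 replicate 1 is an exception, at 26.5 against 31.1 to 35.5 in shControl. Within the 12, the shLINE_MdV_I libraries lay below all those of shLINE_Orf2 and of shLINE_Orf1+LINE-1. The log2 fold change of shLINE_MdV_I over shControl was 0.2 ± 0.13, against -0.3 ± 0.12 over shLINE_Orf2 and -0.41 ± 0.12 over shLINE_Orf1+LINE-1. Tapbp overlaps the gene Zbtb22 on the same strand, which averaged 25.2 CPM, and 21.0% of the 50-base words of its main transcript occur in other genes' transcripts, mostly in Gm19412.

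Psmb8, Psmb9 and Psmb10 encode the 3 inducible catalytic subunits that replace the products of Psmb5, Psmb6 and Psmb7 in the immunoproteasome. Psmb8 had 24.6, 25.1 and 27.1 CPM in shLINE_MdV_I, 49.7, 40.1 and 38.1 CPM in shLINE_Orf1, 43.8, 40.9 and 35.8 CPM in shLINE_Orf2, 46.0, 39.3 and 44.9 CPM in shLINE_Orf1+LINE-1, and 38.0, 52.9 and 32.4 CPM in shControl. As for H2-D1 and B2m, the shLINE_MdV_I libraries were the lowest 3 of the 15. Over shControl its log2 fold change in shLINE_MdV_I was -0.68 ± 0.16.

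Psmb9 had 10.1, 9.6 and 13.8 CPM in shLINE_MdV_I, 22.3, 14.9 and 16.5 CPM in shLINE_Orf1, 21.8, 15.8 and 12.9 CPM in shLINE_Orf2, 18.2, 15.7 and 15.4 CPM in shLINE_Orf1+LINE-1, and 14.6, 19.2 and 10.5 CPM in shControl. Its shLINE_MdV_I libraries overlapped with those of shControl and of shLINE_Orf2, and the log2 fold change over shControl was -0.4 ± 0.23. Psmb10 had 44.4, 45.3 and 49.5 CPM in shLINE_MdV_I, 75.4, 52.2 and 56.7 CPM in shLINE_Orf1, 53.7, 54.3 and 57.1 CPM in shLINE_Orf2, 51.7, 54.4 and 51.0 CPM in shLINE_Orf1+LINE-1, and 41.8, 65.5 and 42.1 CPM in shControl. For Psmb10 shLINE_MdV_I lay below the 3 groups with other LINE-1 shRNAs and between the libraries of shControl, with a log2 fold change over shControl of -0.1 ± 0.16.

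Set against the constitutive subunits, the 3 inducible ones did not share 1 pattern. Psmb8 stood at 8.35%, 8.1% and 8.48% of Psmb5 in shLINE_MdV_I and at 15.2%, 13.1% and 10.9% in shControl (TPM in both), and the group means of the other 3 groups were 12.5% to 14%. All 3 shLINE_MdV_I libraries were below the other 12. Psmb9 stood at 1.84%, 1.7% and 2.05% of Psmb6 in shLINE_MdV_I and at 5.35%, 4.51% and 3.12% in shControl. That ratio was also low in shLINE_Orf1 (2.53% ± 0.256), shLINE_Orf2 (2.87% ± 0.996) and shLINE_Orf1+LINE-1 (2.81% ± 0.283), where Psmb6 itself was higher on average than in shControl. Psmb6 averaged 437 CPM in shLINE_Orf1, 357 in shLINE_Orf2, 360 in shLINE_MdV_I, 375 in shLINE_Orf1+LINE-1 and 215 in shControl. Psmb10 stood at 26.3% ± 0.61 of Psmb7 in shLINE_MdV_I and 27.7% ± 2.62 in shControl (SD, n = 3 each), ranges that overlapped.

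**Figure D2:**
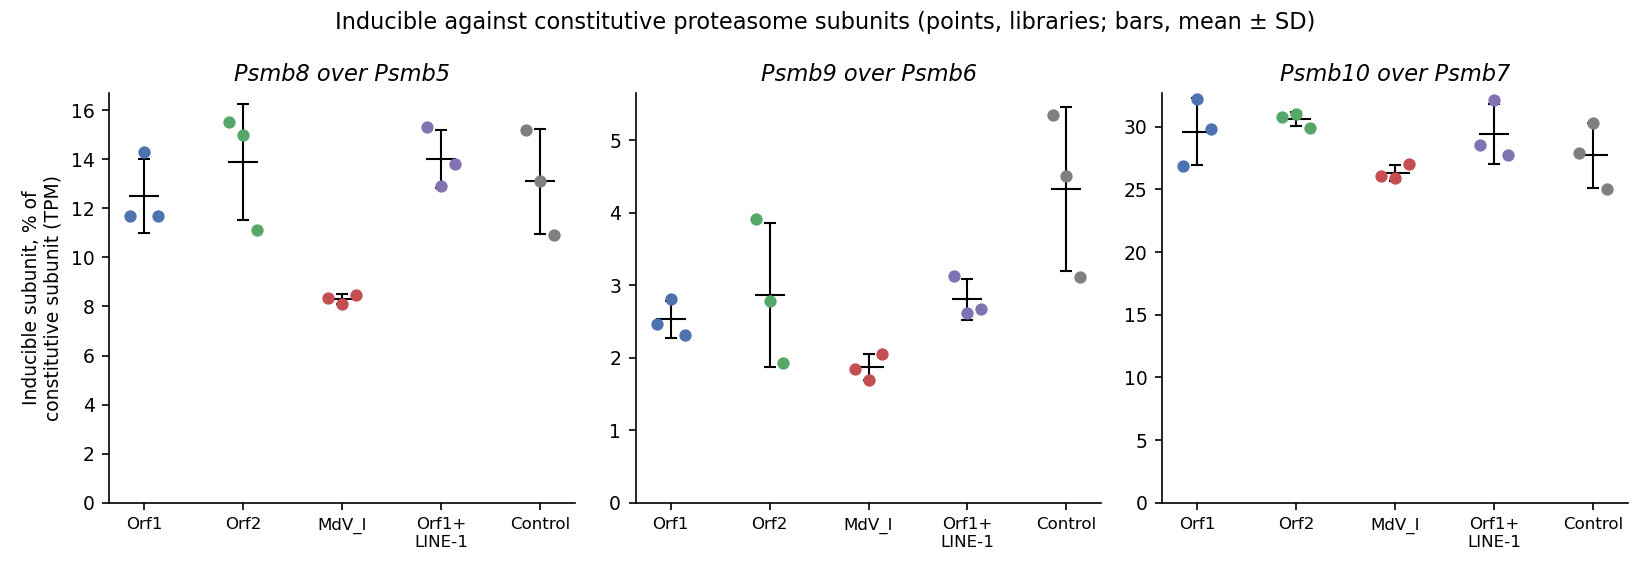
Level of each inducible proteasome subunit as a percentage of its constitutive counterpart, from TPM values, by group; points are libraries, bars are means ± SD (n = 3), and y axes start at 0. Psmb8 over Psmb5 is lowest in the 3 shLINE_MdV_I libraries, Psmb9 over Psmb6 is highest in shControl on average, and Psmb10 over Psmb7 overlaps between shLINE_MdV_I and shControl.

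Nlrc5, the factor that drives class I promoters through their conserved SXY module, had the lowest level per length of the 10. It had 2.62, 3.09 and 3.29 CPM in shLINE_MdV_I, 1.67, 3.71 and 3.55 CPM in shLINE_Orf1, 3.35, 2.7 and 2.95 CPM in shLINE_Orf2, 5.19, 4.06 and 4.0 CPM in shLINE_Orf1+LINE-1, and 5.05, 2.66 and 2.75 CPM in shControl. Its shLINE_MdV_I and shControl libraries overlapped, with a log2 fold change of -0.22 ± 0.29 and a 95% interval from -0.83 to 0.39. The libraries of shLINE_Orf1+LINE-1 lay above all those of shLINE_MdV_I, shLINE_Orf1 and shLINE_Orf2.

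Over the 10 genes, 9 had a negative log2 fold change in shLINE_MdV_I over shControl, with a median of -0.38 against -0.01 for all genes tested. In CPM, 6 lay below shControl with no overlap between the libraries (H2-D1, H2-K1, B2m, Tap1, Tap2 and Psmb8), where 6.65% of all genes did, and 1 lay above, Tapbp, where 8.22% of all genes did. H2-D1 and B2m were past the threshold that 0.594% of all genes passed, an adjusted p under 0.05 by the quasi-likelihood test of edgeR (Benjamini-Hochberg). Since the list was chosen on this comparison, these counts describe it and support nothing. Without shLINE_Orf1 replicate 1 and shControl replicate 2 the log2 fold changes were -0.73 ± 0.1 for H2-D1, -0.74 ± 0.08 for B2m, -0.46 ± 0.1 for Psmb8, -0.45 ± 0.11 for Tap1, -0.33 ± 0.11 for Tap2 and -0.21 ± 0.1 for H2-K1, and 4 genes, the first 4 of these, were past the threshold in place of 2. Psmb10 changed sign in that fit, at 0.15 ± 0.08. Over all genes the same fit called 172 higher and 217 lower of 15398, against 39 and 51 of 15141 with all libraries. The description of a library ends in 12 in place of 1 for shLINE_MdV_I replicates 2 and 3 and for shLINE_Orf1 replicate 1, and what that number stands for is not given. shLINE_MdV_I replicate 1 has the same number as all shControl libraries. It lay below all 3 of them for the same 6 genes, but the 6 were picked for lack of overlap. That position therefore says nothing on the part of the number.

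Most of the 10 were also lower in shLINE_MdV_I than in each of the other 3 groups. Over shLINE_Orf1+LINE-1 all 10 genes were lower in shLINE_MdV_I without overlap, where 13.7% of all genes were, and the median log2 fold change was -0.53. H2-D1, B2m and Psmb8 were past the threshold there, which 0.68% of all genes passed. Over shLINE_Orf1, 6 of the 10 were lower without overlap (9.64% of all genes), and B2m and Psmb8 were past the threshold (0.687% of all genes). Over shLINE_Orf2, 7 of the 10 were lower without overlap (8.54% of all genes), and 0 were past the threshold in edgeR's test (0.112% of all genes). There 7 had an unadjusted p under 0.05 in edgeR's test (5.45% of all genes). DESeq2 called 3 there, and 119 of all 15141 genes. The 4 comparisons share the shLINE_MdV_I libraries, so they are not separate evidence. The list was chosen on these libraries, so the counts describe them and test nothing.

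The sum of the 10 astrocyte markers was also low in shLINE_MdV_I, at 3150 to 3360 CPM, against 3430 to 3610 in shLINE_Orf2, 3570 to 4460 in shLINE_Orf1, 3710 to 3930 in shLINE_Orf1+LINE-1 and 3390 to 4070 in shControl. None of the 10 astrocyte markers was under 1 CPM throughout. Slc1a3 made up most of their sum in shControl, with a mean of 2150 CPM, while Gfap and Aqp4 averaged 3.5 and 4.66 CPM there. The part of the difference in this sum in the class I values was not tested. The summed microglia and macrophage markers were 1.36 to 1.87 CPM in shLINE_MdV_I and 1.81 to 2.66 CPM in shControl, ranges that overlap. They were 1.27 to 1.43 CPM in shLINE_Orf1, 1.03 to 1.48 in shLINE_Orf2 and 1.72 to 2.05 in shLINE_Orf1+LINE-1. P2ry12, a microglial marker, made up most of the shControl sum with a mean of 1.52 CPM, and it ranged from 0.241 to 1.73 CPM over all libraries. Summed neuron markers were 431 to 460 CPM in shLINE_MdV_I, 373 to 418 in shLINE_Orf1, 396 to 441 in shLINE_Orf2, 394 to 429 in shLINE_Orf1+LINE-1 and 335 to 520 in shControl. Summed oligodendrocyte markers were 107 to 114, 105 to 122, 101 to 120, 95.2 to 104 and 119 to 131 CPM in the same order. The part of any of these markers in the class I values was not tested either.

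**Figure D3:**
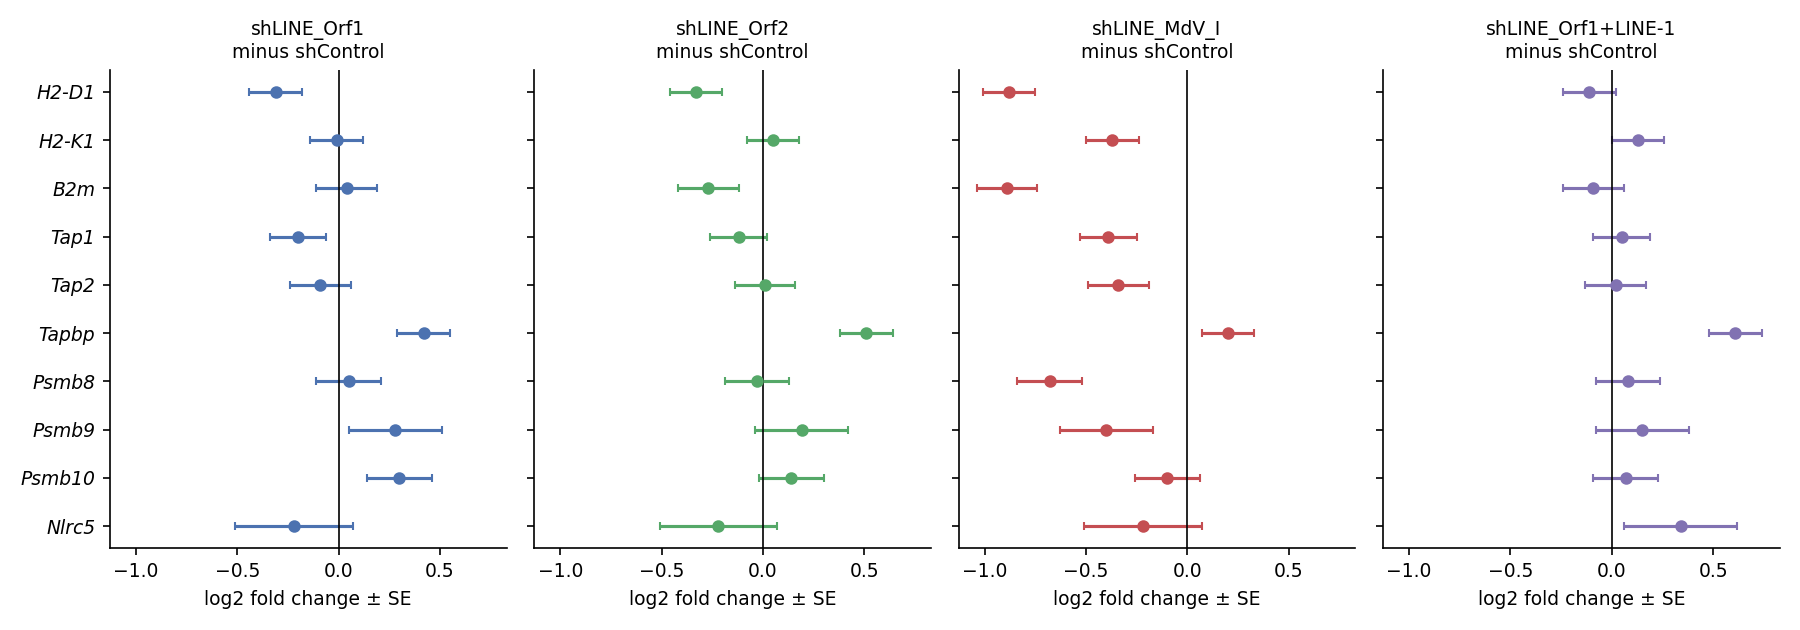
Log2 fold change of the 10 genes over shControl in 4 comparisons that share the shControl libraries; points are edgeR estimates and bars are ± SE. In shLINE_MdV_I 9 of the 10 points lie below 0, with H2-D1 and B2m at -0.88 and -0.89, and Tapbp lies above 0 in all 4 panels.

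The comparisons of shLINE_Orf1, shLINE_Orf2 and shLINE_Orf1+LINE-1 with shControl ask what the other LINE-1 shRNAs do to class I genes. They share the shControl libraries with each other and with the comparison on which the list was chosen. In shLINE_Orf1 the median log2 fold change of the 10 genes was 0.01, with 5 negative, in shLINE_Orf2 it was -0.01, with 5 negative, and in shLINE_Orf1+LINE-1 it was 0.08, with 2 negative. By the quasi-likelihood test of edgeR, adjusted after Benjamini and Hochberg over all genes, 0 of the 10 passed in each of the 3, where 0.178%, 0.192% and 0.139% of all genes passed. At an unadjusted p under 0.05 in edgeR's test there were 2, 2 and 1 of the 10, where 10.5%, 7.01% and 8.76% of all genes were. DESeq2 called 0, 1 and 1 of the 10, and 214, 184 and 214 of all 15141 genes. Without shLINE_Orf1 replicate 1 and shControl replicate 2, edgeR called 2 of the 10 in each of the 3, Tapbp and Psmb10. Over all genes, calls in any alternative reached at most 214, 270 and 353 in these 3.

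Tapbp had the smallest p of the 10 in all 3. Its log2 fold change over shControl was 0.42 ± 0.13 in shLINE_Orf1 (adjusted p = 0.26), 0.51 ± 0.13 in shLINE_Orf2 (adjusted p = 0.154) and 0.61 ± 0.13 in shLINE_Orf1+LINE-1 (adjusted p = 0.0814) in edgeR's test, none past the threshold. The libraries did not overlap in any of the 3, as for 4.88%, 6.9% and 9.53% of all genes in the upward direction. Leaving out shLINE_Orf1 replicate 1 alone took Tapbp past the threshold in all 3, at 0.55 ± 0.1 (adjusted p = 0.0396), 0.5 ± 0.09 (adjusted p = 0.0189) and 0.6 ± 0.09 (adjusted p = 0.00622). Leaving out shLINE_Orf1 replicate 2 took it past the threshold in shLINE_Orf1+LINE-1 (0.62 ± 0.11, adjusted p = 0.0298). Without shLINE_Orf1 replicate 1 and shControl replicate 2, Psmb10 was at 0.37 ± 0.08 in shLINE_Orf1 (adjusted p = 0.045), 0.39 ± 0.08 in shLINE_Orf2 (adjusted p = 0.0136) and 0.33 ± 0.08 in shLINE_Orf1+LINE-1 (adjusted p = 0.0386), and with all libraries at 0.3 ± 0.16, 0.14 ± 0.16 and 0.07 ± 0.16. Leaving out shControl replicate 2 alone, whose 65.5 CPM of Psmb10 stood above the 41.8 and 42.1 CPM of the other shControl libraries, gave 0.55 ± 0.13 (adjusted p = 0.0908), 0.39 ± 0.13 (adjusted p = 0.392) and 0.32 ± 0.13 (adjusted p = 0.441).

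For the genes that were lowest in shLINE_MdV_I, the intervals in the other groups were as follows. The log2 fold change of H2-D1 over shControl was -0.31 ± 0.13 in shLINE_Orf1 (adjusted p = 0.437), -0.33 ± 0.13 in shLINE_Orf2 (adjusted p = 0.542) and -0.11 ± 0.13 in shLINE_Orf1+LINE-1 (adjusted p = 0.884), by edgeR's test. Their 95% intervals ran from -0.58 to -0.03, from -0.6 to -0.06 and from -0.38 to 0.16. B2m was at 0.04 ± 0.15 in shLINE_Orf1, -0.27 ± 0.15 in shLINE_Orf2 and -0.09 ± 0.15 in shLINE_Orf1+LINE-1, with intervals from -0.29 to 0.36, from -0.59 to 0.06 and from -0.42 to 0.23. Psmb8 was at 0.05 ± 0.16, -0.03 ± 0.16 and 0.08 ± 0.16 in the same groups. These intervals do not show that the groups were alike.

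Adding LINE-1 to shLINE_Orf1, a comparison with no library of shControl or of shLINE_MdV_I, left the 10 genes with a median log2 fold change of 0.12, and 7 of them were positive. By edgeR's test 0 of the 10 passed, where 0% of all genes passed, with 0 at an unadjusted p under 0.05 and 0 in DESeq2. Over all genes 1680 had an unadjusted p under 0.05, and DESeq2 called 5 higher and 15 lower. H2-D1 and Nlrc5 were higher in shLINE_Orf1+LINE-1 without overlap, as 9.44% of all genes were. Their log2 fold changes were 0.19 ± 0.13 for H2-D1 (adjusted p = 0.468) and 0.57 ± 0.29 for Nlrc5 (adjusted p = 0.422), the second with a 95% interval from -0.04 to 1.17.

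Between shLINE_Orf2 and shLINE_Orf1 the median of the 10 was -0.01, and 0 passed edgeR's test (0% of all genes), with 0 at an unadjusted p under 0.05 and 0 in DESeq2. Over all genes 1729 had an unadjusted p under 0.05 there, and DESeq2 called 42 higher and 83 lower. In that comparison 0 of the 10 were free of overlap, where 14.2% of all genes were. Between shLINE_Orf1+LINE-1 and shLINE_Orf2 the median was 0.11, and again 0 passed (0.238% of all genes), with 0 at an unadjusted p under 0.05 and 0 in DESeq2. Over all genes 1363 had an unadjusted p under 0.05 in edgeR's test there, and DESeq2 called 268. B2m at 0.17 ± 0.15 and Nlrc5 at 0.56 ± 0.28 were higher in shLINE_Orf1+LINE-1 without overlap, as 13.5% of all genes were.

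Other genes of the pathway were taken from lists that hold 76 genes beside the 10. Those lists were also made with earlier results known. Their p-values in comparisons with shLINE_MdV_I come from the libraries on which the 10 were chosen, so they are not separate evidence. Some other heavy chains also share sequence with H2-D1 and H2-K1. Of 19 other class I and class I-like heavy chain genes, 13 passed the filter, and 12 of these had a negative log2 fold change in shLINE_MdV_I over shControl, as 52.4% of all genes had, with a median of -0.51. At an unadjusted p under 0.05 in edgeR's test there were 6 of the 13, where 8.63% of all genes were. DESeq2 called 3, H2-Q4, H2-Q7 and H2-T23, and 305 of all 15141 genes. After adjustment 1 of the 13 passed edgeR's test, H2-Q4, a nonclassical heavy chain gene of the Q region. It had 4.12, 4.34 and 3.47 CPM in shLINE_MdV_I, 5.5, 9.62 and 7.0 CPM in shLINE_Orf1, 7.38, 6.25 and 5.38 CPM in shLINE_Orf2, 7.78, 8.15 and 8.25 CPM in shLINE_Orf1+LINE-1, and 8.31, 9.33 and 6.7 CPM in shControl. The shLINE_MdV_I libraries were the lowest 3 of the 15, and the log2 fold change over shControl was -1.03 ± 0.2 (adjusted p = 0.0241). The call was lost when any 1 of the 3 shLINE_MdV_I libraries, shControl replicate 1 or shControl replicate 2 was left out, with adjusted p of 0.14, 0.0924, 0.132, 0.0869 and 0.104 in edgeR's test. Over shLINE_Orf1+LINE-1 it also passed (-1.02 ± 0.2, adjusted p = 0.0268), and there the call was lost without any 1 of the 6 libraries of those groups, at adjusted p of 0.0831 to 0.121. In H2-Q4 36.9% of the 50-base words of its longest annotated transcript occur in other genes' transcripts, so its share of the reads is uncertain. The largest part, 15.6% of its words, is shared with Gm11131, a gene that is not in the count table.

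H2-Q7, another Q-region heavy chain, was at -0.65 ± 0.15 (adjusted p = 0.0754, edgeR), with a mean of 34.4 CPM in shLINE_MdV_I and 54.1 CPM in shControl. Of the 50-base words of its longest annotated transcript 27.1% occur in other genes' transcripts. In 5 of the 13 genes the shLINE_MdV_I libraries lay below those of shControl without overlap, as in 6.65% of all genes. In shLINE_Orf1, shLINE_Orf2 and shLINE_Orf1+LINE-1 the median of the same 13 genes over shControl was 0.04, -0.07 and -0.02. In each of these 0 passed edgeR's test and 0 were called in DESeq2. At an unadjusted p under 0.05 in edgeR's test there were 1, 1 and 2, where 10.5%, 7.01% and 8.76% of all genes were.

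**Figure D4:**
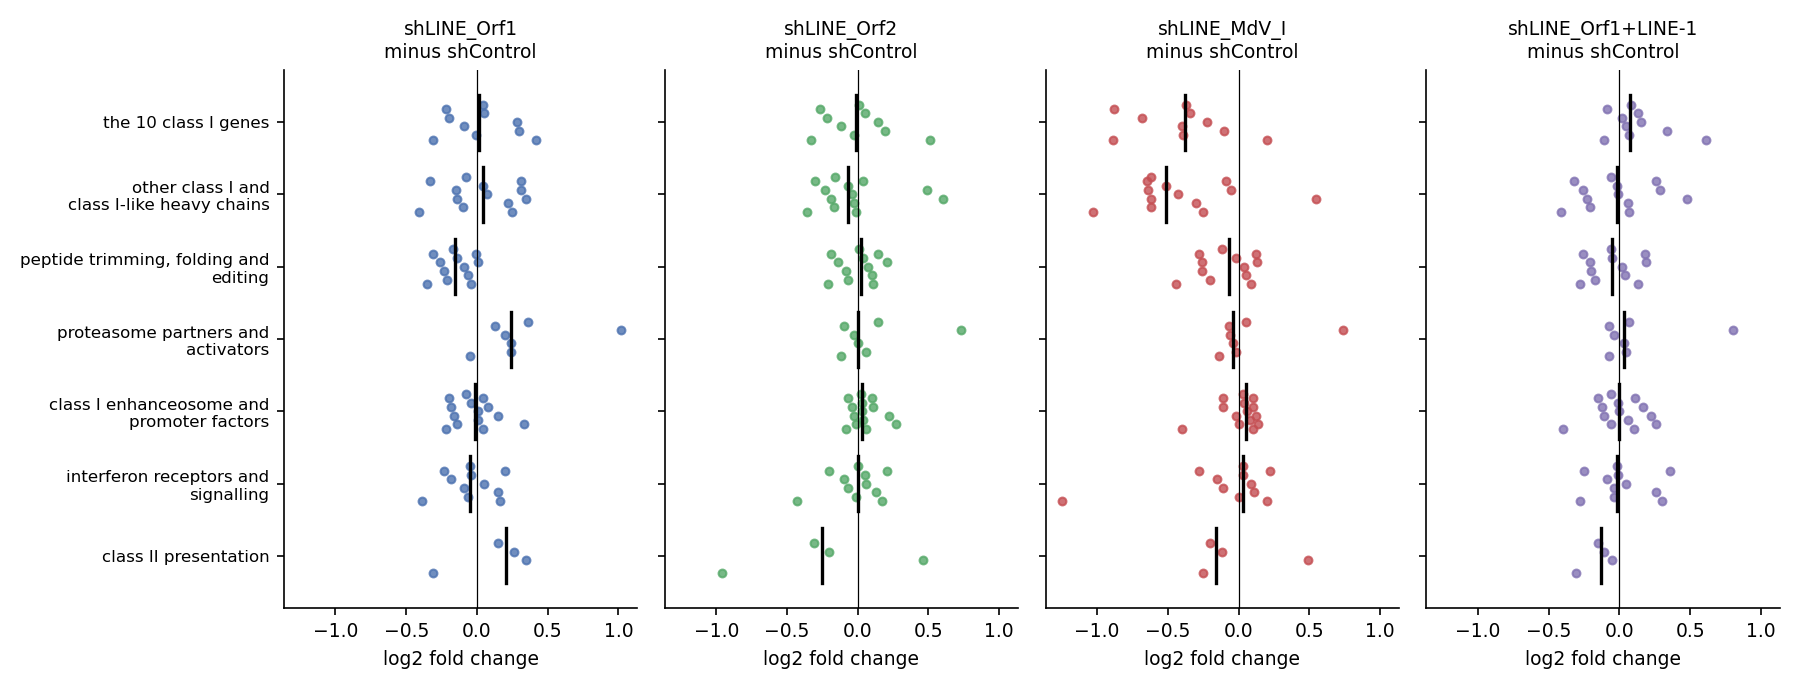
Log2 fold changes over shControl of the genes tested in each pathway list (points, genes; black bars, medians), in 4 comparisons that share the shControl libraries. In shLINE_MdV_I the 10 class I genes and the other heavy chains have medians of -0.38 and -0.51, and the other 5 lists have medians between -0.16 and 0.05; the points far from the rest there are Irf7 at -1.25 and Psmb6 at 0.74.

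Few genes of the earlier and later steps of the pathway came near the threshold. For scale, 8.63% of all genes had an unadjusted p under 0.05 in shLINE_MdV_I over shControl by edgeR's test. DESeq2 called 305 of all 15141 genes there. Of the 12 genes for peptide trimming, folding and editing, 0 passed in shLINE_MdV_I over shControl by edgeR's test, with 1 at an unadjusted p under 0.05 and 1 in DESeq2, Canx in both, and the median was -0.07. Canx, the chaperone calnexin that binds newly made heavy chains, had the smallest p, at -0.44 ± 0.1 (adjusted p = 0.07), with 606 CPM in shLINE_MdV_I and 824 CPM in shControl on average. Without shLINE_Orf1 replicate 1 the adjusted p of Canx was 0.0207 and without it and shControl replicate 2 it was 0.00392, while without shControl replicate 1 the log2 fold change was -0.32 ± 0.09 (adjusted p = 0.235). Erap1, the peptidase that trims peptides in the endoplasmic reticulum, was at -0.26 ± 0.15 (adjusted p = 0.714).

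Of 7 constitutive proteasome subunits and activators, 0 passed in shLINE_MdV_I by the same test, with 1 at an unadjusted p under 0.05 and 1 in DESeq2, Psmb6 in both, and the median was -0.04. Psmb5, Psmb6 and Psmb7 were at -0.06 ± 0.17, 0.74 ± 0.17 (adjusted p = 0.0674) and -0.04 ± 0.18, and the activator subunit gene Psme2 was at -0.14 ± 0.18. In CPM every library of the other groups lay above those of shControl for Psmb6, at 335 to 556 against 175 to 271. DESeq2 called Psmb6 over shControl in shLINE_Orf1, shLINE_Orf2, shLINE_MdV_I and shLINE_Orf1+LINE-1, and 214, 184, 305 and 214 of all 15141 genes. By edgeR's test Psmb6 passed in 1 comparison, shLINE_Orf1 over shControl, at 1.02 ± 0.17 (adjusted p = 0.0242). That call was lost without shControl replicate 1 (0.9 ± 0.19, adjusted p = 0.109), without shControl replicate 3 (0.98 ± 0.21, adjusted p = 0.165) or without shLINE_Orf1 replicate 3 (1.05 ± 0.19, adjusted p = 0.0516). Leaving out shLINE_MdV_I replicate 1 or any 1 of the shLINE_Orf1+LINE-1 libraries also took it over the threshold, at an adjusted p of 0.0502 to 0.0558.

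Of 14 tested factors that bind class I promoters, 0 passed in shLINE_MdV_I over shControl by edgeR's test, with 1 at an unadjusted p under 0.05 and 1 in DESeq2, and the median was 0.05. Rfxank, a subunit of the RFX complex that binds class I promoters with Nlrc5, was at 0.14 ± 0.1 (adjusted p = 0.793). Named for the motifs printed above, and chosen after their values were seen, Irf1, a factor that binds the ISRE, was at 0.04 ± 0.13, and Nfkb1 and Rela, which encode NF-kappaB subunits, were at 0.03 ± 0.2 and 0.1 ± 0.1.

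Among 11 tested genes of interferon receptors and signalling, 1 passed in shLINE_MdV_I over shControl, and the median was 0.03. This was Irf7, a factor that binds the ISRE and drives type I interferon genes. It had 14.8, 15.8 and 15.1 CPM in shLINE_MdV_I, 36.4, 31.3 and 28.3 CPM in shLINE_Orf1, 32.3, 29.5 and 18.7 CPM in shLINE_Orf2, 33.8, 32.0 and 35.9 CPM in shLINE_Orf1+LINE-1, and 38.5, 41.3 and 28.7 CPM in shControl. As with H2-D1, B2m and Psmb8, the 3 shLINE_MdV_I libraries were the lowest of the 15. The log2 fold change was -1.25 ± 0.18 over shControl (adjusted p = 0.00422, edgeR), -1.07 ± 0.18 over shLINE_Orf1 (adjusted p = 0.0126), -0.82 ± 0.18 over shLINE_Orf2 (adjusted p = 0.121) and -1.15 ± 0.18 over shLINE_Orf1+LINE-1 (adjusted p = 0.00715). Over shLINE_Orf1 the call was lost without shLINE_MdV_I replicate 1, 2 or 3, at 0.109, 0.0683 and 0.0549, and over shLINE_Orf1+LINE-1 without replicate 1, at 0.0555. Over shLINE_Orf2 it was gained without shLINE_Orf1 replicate 1 (0.0485) or shLINE_Orf2 replicate 3 (0.032). Irf9, the DNA-binding subunit of the complex that type I interferon activates on the ISRE, was at -0.28 ± 0.12 (adjusted p = 0.491) over shControl.

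Irf9 passed in 1 comparison, shLINE_MdV_I over shLINE_Orf1+LINE-1, at -0.54 ± 0.12 (adjusted p = 0.0456, edgeR). It was lost without any 1 of the libraries of those groups, at adjusted p of 0.106 to 0.219. It was also lost without shControl replicate 3, shLINE_Orf1 replicate 3 or shLINE_Orf2 replicate 2, at 0.0543, 0.0686 and 0.054.

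Of 11 class II genes, which present peptides taken up from outside the cell, 4 passed the filter on low counts, and 0 passed edgeR's test in shLINE_MdV_I over shControl, with 1 at an unadjusted p under 0.05, 0 in DESeq2 and a median of -0.16. H2-Ab1, a class II chain, was at 0.49 ± 0.22 (adjusted p = 0.544) and H2-DMa, a chain of the class II peptide editor, at -0.25 ± 0.16 (adjusted p = 0.753).

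Other genes of the MHC region were set beside the class I genes. Between the start of Tapbp and the end of H2-D1, a stretch of 1352 kb (chromosome 17, 33915899 to 35267499, GRCm38), 58 tested genes are in no list used here. Of these, 0 passed edgeR's test in shLINE_MdV_I over shControl, with 2 at an unadjusted p under 0.05 and 1 in DESeq2. Their median log2 fold change was 0.03, and 22 were negative. In 1 of the 58 the shLINE_MdV_I libraries lay below all those of shControl (6.65% of all genes), and in 8 they lay above (8.22% of all genes). The gene that DESeq2 called was C4b, a complement gene, at -1.1 ± 0.29 in edgeR's fit, lower than any of the 7 class I genes there, and Ly6g6e was at -1.26 ± 0.79. Both are named after their values were seen. In the same stretch 6 of the 7 class I genes lay between -0.34 and -0.88 and Tapbp at 0.2.

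**Figure D5:**
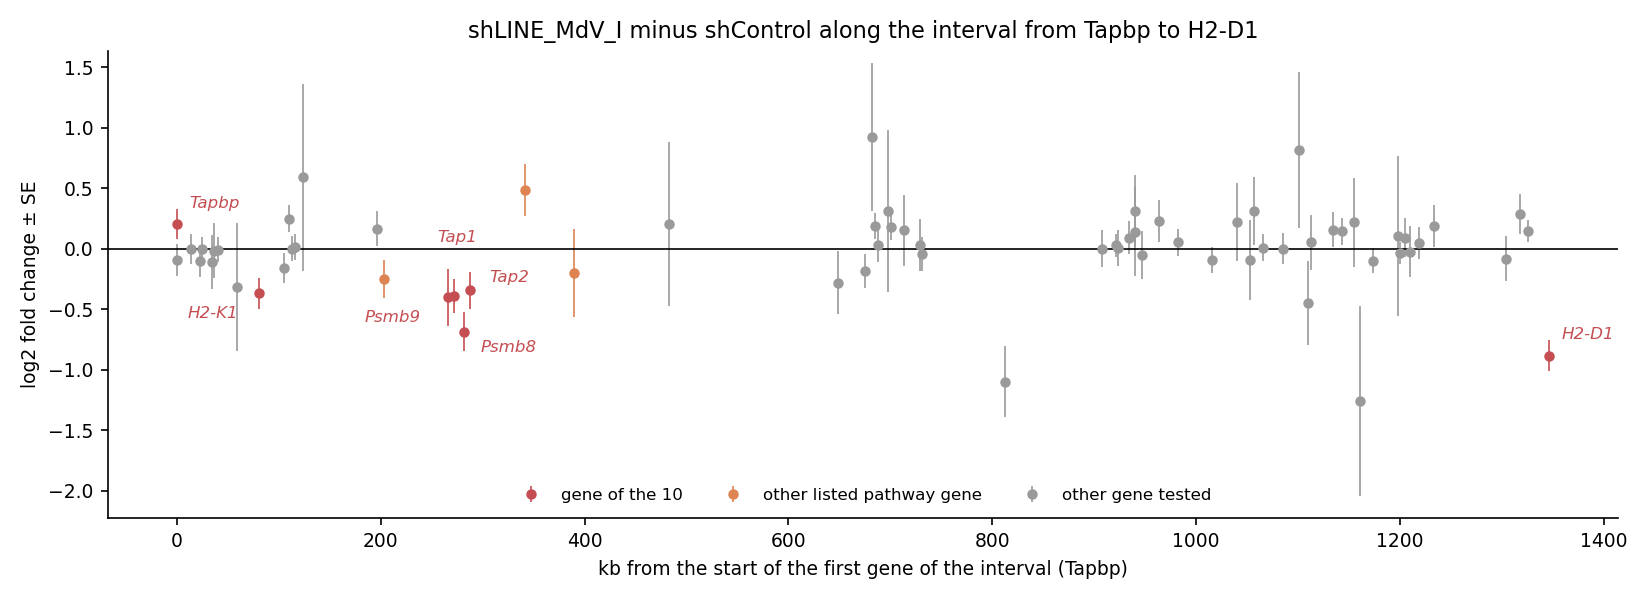
Log2 fold change of shLINE_MdV_I over shControl (± SE, edgeR) for every tested gene from Tapbp to H2-D1, against distance in kb from the start of Tapbp. The 6 class I genes other than Tapbp lie between -0.34 and -0.88, the tested genes in no list have a median of 0.03, and C4b and Ly6g6e, at -1.1 and -1.26, lie lowest of all.

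Across the 15 libraries the 10 genes went together to different degrees. Pearson's r between the log2 CPM of a gene and the mean of the other 9 was highest for H2-K1 at 0.95, followed by H2-D1 and Psmb8 at 0.86 each, Psmb9 at 0.74, B2m at 0.71, Tap2 at 0.65 and Tap1 at 0.64. It was 0.47 for Tapbp and 0.29 for Psmb10 and for Nlrc5. These r values are descriptions over 15 libraries that include the 5 groups, and heavy chains share reads with each other. Of the other genes with mean log2 CPM at or above 3, Bst2, which encodes the interferon-induced antiviral protein tetherin, was most like the mean of the 10, with r = 0.94. Then came H2-Q7 at 0.91, Srxn1 and Ube2l6 at 0.9 each, Pld3 at 0.89, Usp18 at 0.88 and Me1 at 0.87. Bst2 averaged 62.6 CPM in shLINE_Orf1, 54.8 in shLINE_Orf2, 35.9 in shLINE_MdV_I, 66.3 in shLINE_Orf1+LINE-1 and 61.8 in shControl.

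The authors' deposited table of model results, for young LINE-1, gives an adjusted p-value of 1 for all of its 17921 genes. In the authors' deposited table the smallest p of the 10 genes was 0.0274, for Psmb9, with an estimate of -1.0 and an error of 0.4 on a scale that is not named. The other 9 had p from 0.378 to 0.915 in the authors' deposited table.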

How the data were processed

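RNA of 15 libraries was analysed in 5 groups of 3, mapped from GEO's labels. The authors deposited a table of expected counts per transcript, for 111462 transcripts and 1 blank row, which was left out. Cutadapt, RSEM and the build mm10 are named per the submitters' processing notes, with no version. Their settings and annotation were not given in the sources used here. A second deposited table, per the file headers, gives the authors' model estimates, errors and t scores (score values on an unnamed scale), degrees of freedom (other values) and p-values for an effect of young LINE-1.

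Transcripts were matched to GENCODE M21 (GRCm38). The 1347 that were not matched held 0.595% to 0.65% of the expected counts of a library. Counts were summed to 34910 genes and rounded. TPM used annotated transcript lengths. With edgeR 4.0.16 (R 4.3.3), genes were filtered by filterByExpr with a minimum count of 10, which left 15141, scaled by TMM and fitted by robust quasi-likelihood with 1 mean per group over all 15 libraries. The common biological coefficient of variation was 0.158. Adjusted p-values are Benjamini-Hochberg over all genes tested, with a threshold of 0.05. Intervals are 95%. Tables and figures used Python 3.11.15, numpy 2.4.6, pandas 2.3.3 and matplotlib 3.10.9.

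The 10 genes, the lists and the tests were chosen with earlier results of these data known. All 10 genes are named in every group. Of other pathway genes, those called in any comparison and the 2 of each list with the smallest p in shLINE_MdV_I over shControl are named, with their partners Psmb5 and Psmb7, and of genes with the most similar pattern the 8 with the highest Pearson's r to the mean of the 10. A result that these rules name is not reported here.

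Alternatives were DESeq2 1.42.0, RLE size factors, library size only, no filter, at least 50 counts in 3 libraries, only the 2 groups compared, a replicate block, the description number of a library as a covariate, each library left out, heavy chains summed, the most abundant transcript of each gene, and, chosen after seeing the data, leaving out shLINE_Orf1 replicate 1 together with shControl replicate 2.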

Additional observations from a re-analysis of the deposited data

How the results depend on the processing

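Counts below are of the 10 class I genes past the threshold of edgeR's test. With 1 library left out at a time, they ranged from 1 to 3 in shLINE_MdV_I over shControl, from 0 to 3 over shLINE_Orf1, from 0 to 1 over shLINE_Orf2 and from 0 to 6 over shLINE_Orf1+LINE-1. They ranged from 0 to 1 in each of shLINE_Orf1, shLINE_Orf2 and shLINE_Orf1+LINE-1 over shControl, and stayed at 0 to 0 in the 3 comparisons among those groups. Without shLINE_Orf1 replicate 1 and shControl replicate 2 they were 2 in each of the same 3 groups over shControl, and for shLINE_MdV_I 4 over shControl, 4 over shLINE_Orf2 and 7 over shLINE_Orf1+LINE-1. In shLINE_MdV_I over shControl that fit called 172 higher and 217 lower of all 15398 genes tested. Over all genes, calls for shLINE_MdV_I in any alternative reached at most 2059 over shLINE_Orf1, 198 over shLINE_Orf2 and 1190 over shLINE_Orf1+LINE-1. For shLINE_Orf1, shLINE_Orf2 and shLINE_Orf1+LINE-1 over shControl they reached at most 214, 270 and 353. DESeq2 called 1 in shLINE_Orf2 and 1 in shLINE_Orf1+LINE-1 over shControl, and 3 in shLINE_MdV_I over shLINE_Orf2. Of all 15141 genes it called 184, 214 and 119 in these comparisons. With only the 2 groups compared, shLINE_MdV_I gave 1 over shControl, 0 over shLINE_Orf1, 4 over shLINE_Orf2 and 8 over shLINE_Orf1+LINE-1. Over all genes that setting called 10 higher and 18 lower of 14483 tested over shControl, and 0 and 0 of 14442 over shLINE_Orf1. It called 103 and 95 of 14542 over shLINE_Orf2, and 568 and 622 of 14498 over shLINE_Orf1+LINE-1. The description number as a covariate gave 5 in shLINE_MdV_I over shLINE_Orf1, 1 over shLINE_Orf2, and 1 in shLINE_Orf1+LINE-1 over shControl. Of all 15141 genes it called 1136 higher and 923 lower, 21 and 7, and 23 and 16 in the same order. Library size only, and the most abundant transcript, each gave 1 in shLINE_MdV_I over shLINE_Orf1. There they called 24 higher and 33 lower, and 38 and 64, of all 15141 genes. The cause of these changes between settings was not tested. No value reversed its direction where it had been past the threshold.

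With the replicate number as a block (replicate block), shLINE_MdV_I gave 2 over shControl, 1 over shLINE_Orf1 and 1 over shLINE_Orf1+LINE-1, and Psmb6 in shLINE_Orf1 over shControl lost its call. For shLINE_MdV_I that fit called 20 higher and 35 lower, 17 and 38, and 27 and 42 of all 15141 genes. Deviations from group means of the 30 same-numbered pairs had a median r of -0.022 (range -0.271 to 0.18). The 60 other pairs had a median r of 0.0065. These values show no pairing by number. They cannot exclude cultures or days shared between groups, since a group has 3 libraries and 2 libraries stand apart.

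Over all genes, calls ranged over the alternatives from 22 to 389 in shLINE_MdV_I over shControl, 0 to 2059 over shLINE_Orf1, 4 to 198 over shLINE_Orf2 and 20 to 1190 over shLINE_Orf1+LINE-1. Over shControl they ranged from 1 to 214 in shLINE_Orf1, 3 to 270 in shLINE_Orf2 and 2 to 353 in shLINE_Orf1+LINE-1, and in shLINE_Orf1+LINE-1 from 0 to 20 over shLINE_Orf1 and 0 to 1030 over shLINE_Orf2, and in shLINE_Orf2 from 0 to 125 over shLINE_Orf1. In shLINE_MdV_I over shControl H2-D1 lay between -0.97 and -0.73 in the alternatives that keep it as a gene of its own (-0.65 for the summed heavy chains), B2m between -1.12 and -0.74 and Psmb8 between -0.83 and -0.46.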

Other observations

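Among the genes most like the mean of the 10 across the 15 libraries, Usp18, which removes the interferon-induced modifier ISG15 from proteins, averaged 46.6 CPM in shLINE_MdV_I, 71.1 in shLINE_Orf1, 66.9 in shLINE_Orf2, 75.7 in shLINE_Orf1+LINE-1 and 59.4 in shControl. Ube2l6, which conjugates the same modifier, averaged 16.4 CPM in shLINE_MdV_I and 21.4 CPM in shControl. These genes were picked for their likeness, so no test is given. Their log2 fold changes in shLINE_MdV_I over shControl were -0.35 ± 0.12 and -0.38 ± 0.1 (SE, edgeR). Srxn1 and Me1, which act in redox metabolism, were at -0.37 ± 0.1 and -0.14 ± 0.08.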
